A study of Mus musculus with 16 samples.

Results

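This comparison set macrophages treated with a neutralizing antibody to the αV subunit of integrins (ITGAV) against macrophages treated with an IgG antibody, all of them on normal culture dishes without a coating. Its members are the 8 libraries whose labels give no dish coating, 4 with anti-ITGAV and 4 with IgG, out of 16 libraries in the series. The other 8 libraries carry the same pair of antibodies on fibronectin-coated dishes and enter here as a separate set of samples. Both uncoated groups were bone marrow macrophages from the tibia of wild-type mice of the C57BL/6 strain, aged 2 to 3 months. The marrow cells spent 24 h in medium with 15% fetal calf serum and 12 ng/ml CSF-1, the growth factor that macrophages depend on. The non-adherent cells were then reseeded with 120 ng/ml CSF-1 for 48 h, and the adherent cells were passaged once. At confluence anti-ITGAV (10 µg/ml) or IgG (10 µg/ml) was added for 24 h before RNA was taken. The title of the series concerns αV integrin in macrophages of the heart after infarction. No label says that the 4 libraries of a group came from separate mice or cultures, so p-values here reflect the spread of these samples alone, and that spread may be technical.

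Integrins are paired receptors for matrix and cell-surface ligands. The αV subunit pairs with β1, β3, β5, β6 or β8 and binds proteins that carry an arginine-glycine-aspartate motif, among them fibronectin, vitronectin, osteopontin and latent TGF-β. Ligand binding links the receptor to actin through focal adhesion proteins and feeds kinases such as FAK, Src and ERK. Immediate early genes such as Fos and Egr1 are transcribed within minutes of such signals, from promoters that carry serum response elements (the CArG box) and cyclic AMP response elements (CRE).

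With anti-ITGAV on uncoated dishes 2 genes rose and none fell at an adjusted p under 0.05 (edgeR's quasi-likelihood test with Benjamini-Hochberg adjustment over 15469 genes tested, of 54532 in the table). The call rate was 0.0129% of the genes tested. The genes were Myo1e, which encodes a class I myosin that links membrane to actin, and Fos, which encodes a subunit of the AP-1 transcription factor. At an unadjusted p under 0.05, 283 genes stood higher (1.83%) and 187 lower (1.21%) with anti-ITGAV. The groups did not overlap for 346 genes that stood higher (2.24%) and 141 that stood lower (0.912%). The median SE of a log2 change was 0.19 over the genes tested, and the median log2 change was 0.01.

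Total counts of the 8 libraries lay between 27995035 and 43413650, and a count of 0 allowed up to 0.0691 to 0.107 CPM (3 counts of a library's total), a limit that covers counting error only. CPM below are counts per 1000000 counts of TMM-scaled totals, and FPKM are the deposited values, which are per length. Mitochondrial genes took 1.33% to 1.597% of counts. Over the 8 libraries the median level of 18 macrophage identity genes was 331 CPM, with a summed level of 34960 to 39536 CPM with anti-ITGAV, against 35411 to 37975 CPM with IgG. The labelled cell type thus carried its markers, none of which was at 0. The neutrophil list had a median of 11.5 CPM, the mast cell and basophil list 1.79 CPM, the dendritic list 0.45 CPM and the fibroblast list 0.55 CPM.

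A pair of libraries went against their labels in the bulk of the transcriptome. Each library's log2 CPM, less the mean of the 8, was related to the GC content of the transcripts (Spearman's rho over 15457 genes; genes are no independent replicates). The coefficient was 0.46, 0.11, 0.33 and -0.37 for anti-ITGAV replicates 1 to 4, against -0.28, -0.34, -0.42 and 0.32 for IgG replicates 1 to 4. Replicate 4 of each antibody thus had the sign of the other antibody's remaining libraries. For 70.8% of genes anti-ITGAV 4 lay nearer the mean of the IgG libraries than that of the other anti-ITGAV libraries, and for 69.0% IgG 4 lay nearer the anti-ITGAV mean. In the other 6 libraries the share was 33.5% to 46.3%. With the GC trend of each library removed, the shares of anti-ITGAV 4 and IgG 4 were 62.5% and 60.3%. The mean rho differed by 0.31 between the antibodies, and a two-sided exact permutation test over the 8 libraries gave p = 0.286, where 0.0286 is the smallest it can give. Whether the libraries were exchanged, or the cultures differed, was not tested, and every library is used here under its label.

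**Figure D1:**
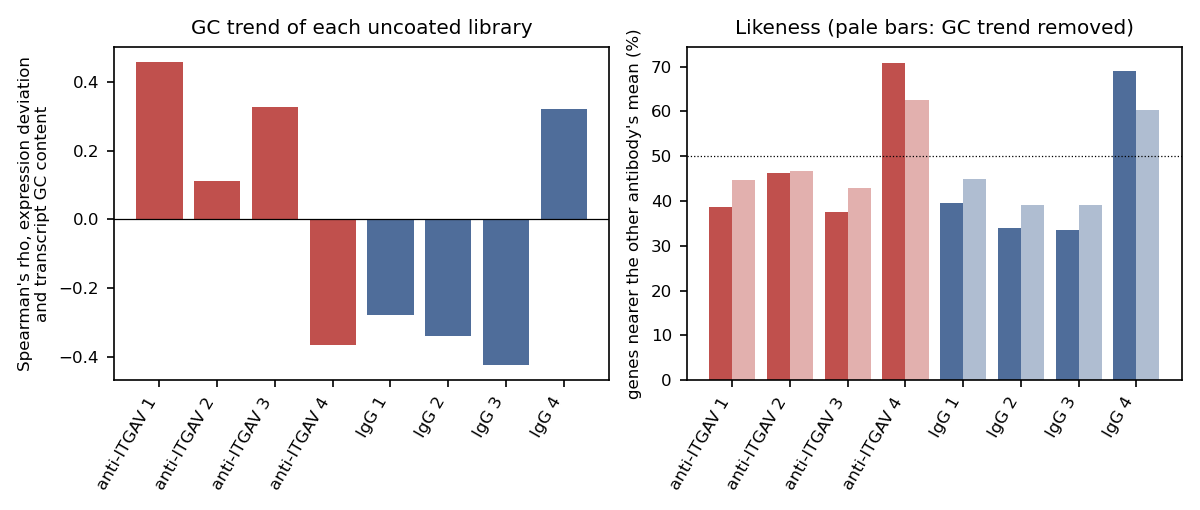
The left panel plots, for each uncoated library, Spearman's rho across genes between its deviation from the 8-library mean and transcript GC content. The right panel plots the percentage of genes for which a library lay nearer the other antibody's mean, full bars as deposited and pale bars after the GC trend was removed, with a dotted line at 50%. Anti-ITGAV 4 and IgG 4 stand at 70.8% and 69.0%, above the 33.5% to 46.3% of the other libraries.

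The trend entered the antibody difference. The log2 change correlated with GC content across genes (rho 0.39), and the median log2 change was -0.14 in the tercile of genes with the lowest GC content, 0.03 in the middle tercile and 0.07 in the highest. Without both replicate 4 libraries rho was 0.49, and with a GC offset fitted for each library it was -0.02. Mki67, a proliferation marker, showed the reversal of both replicate 4 libraries in a single gene. It had 283, 400.2, 337 and 619 CPM with anti-ITGAV, against 609, 672, 682 and 366 CPM with IgG. Mrc1, the mannose receptor, had 1468, 2295, 1841 and 2827 CPM with anti-ITGAV, against 2894, 2944, 2933 and 1834 CPM with IgG. In both genes anti-ITGAV 4 was the highest anti-ITGAV library and IgG 4 the lowest IgG library. Neither gene passed the test (log2 change -0.51 for Mki67 and -0.33 for Mrc1, edgeR adjusted p = 0.988 for each). Without both replicate 4 libraries the log2 changes were -0.94 for Mki67 and -0.65 for Mrc1, and with the GC offset that of Mrc1 was -0.06. The median log2 change of 22 cell cycle genes was -0.01 without the GC offset and -0.02 with it, over all 8 libraries. Some of the results that follow are given with the GC offset or without both replicate 4 libraries as well.

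Myo1e rose 1.57-fold with anti-ITGAV. Its gene lies at chr9:70207350-70399766 (GRCm38). It had 148, 124, 132 and 129 CPM in the anti-ITGAV libraries, against 77.5, 77.9, 88.8 and 95.1 CPM in the IgG libraries. The 4 anti-ITGAV libraries all lay above the 4 IgG libraries, including both replicate 4 libraries, which kept to the side of their label in this gene. The deposited FPKM averaged 23.0 ± 1.56 with anti-ITGAV and 14.7 ± 1.44 with IgG (SD, n = 4 each). The log2 change was 0.65 ± 0.08 (SE), with an edgeR adjusted p of 0.00869. It was 0.63 with the GC offset (edgeR adjusted p = 0.000189) and 0.72 without both replicate 4 libraries (edgeR adjusted p = 0.0213). Leaving out 1 of the 16 libraries at a time kept the call in 12 of 16 fits. It was lost without IgG 1 (edgeR adjusted p = 0.0891), IgG 2 (0.114), anti-ITGAV 1 (0.0588) or anti-ITGAV 3 (0.0541), with log2 changes of 0.60 to 0.71 over the 16 fits.

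Fos rose 1.67-fold. Its gene lies at chr12:85473890-85477273 (GRCm38). It had 37.5, 30.5, 29.1 and 25.8 CPM in the anti-ITGAV libraries, against 18.5, 16.8, 19.5 and 18.6 CPM in the IgG libraries. The groups did not overlap, and the lowest anti-ITGAV library was replicate 4. The FPKM averaged 12.8 ± 1.97 with anti-ITGAV and 7.71 ± 0.48 with IgG (SD, n = 4 each), below those of Myo1e in both groups. The log2 change was 0.74 ± 0.11 (SE), with an edgeR adjusted p of 0.0264. It was 0.67 with the GC offset, which missed the threshold (edgeR adjusted p = 0.051), and 0.82 without both replicate 4 libraries (edgeR adjusted p = 0.0483). The call was kept in 5 of 16 fits that left out a library, with log2 changes of 0.63 to 0.82. On the 8 uncoated libraries alone it was 0.73 and not called (edgeR adjusted p = 0.107). Every uncoated library other than anti-ITGAV 4 cost the call when left out (edgeR adjusted p of 0.0704 to 0.247), and so did replicates 1 and 4 of IgG and 2 and 4 of anti-ITGAV on fibronectin (0.0536 to 0.0587).

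The bases upstream of 3 genes that stood higher are shown because they hold elements of the kind through which immediate early genes are known to be switched on. They are RefSeq sequences on GRCm38.p6, each on the plus strand and starting 250 bases before the RefSeq start, and capitals mark the CArG box and the CRE core TGACG on either strand. The windows of Myo1e and Fos end at the base before that start, and that of Dusp5 ends 36 bases earlier, where the deposited gene begins.
Myo1e, chr9:70207100-70207349: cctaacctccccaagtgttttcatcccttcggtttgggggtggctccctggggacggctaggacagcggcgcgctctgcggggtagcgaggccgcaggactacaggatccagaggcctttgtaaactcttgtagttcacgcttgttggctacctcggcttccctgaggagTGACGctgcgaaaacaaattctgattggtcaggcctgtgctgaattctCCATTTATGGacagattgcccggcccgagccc
Fos, chr12:85473640-85473889: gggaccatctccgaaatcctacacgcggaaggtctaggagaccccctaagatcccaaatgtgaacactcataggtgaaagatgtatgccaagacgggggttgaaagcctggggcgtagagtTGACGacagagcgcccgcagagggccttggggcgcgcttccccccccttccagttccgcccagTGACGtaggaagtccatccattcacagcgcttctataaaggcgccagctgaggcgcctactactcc
Dusp5, chr19:53528895-53529108: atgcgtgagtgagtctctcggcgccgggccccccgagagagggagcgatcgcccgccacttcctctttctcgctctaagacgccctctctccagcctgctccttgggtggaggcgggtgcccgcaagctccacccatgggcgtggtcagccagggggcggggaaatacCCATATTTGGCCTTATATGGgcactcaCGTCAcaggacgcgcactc

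Myo1e held a CArG box 32 to 23 bases before its start and a CRE core 80 to 76 bases before it. Fos held CRE cores 129 to 125 and 66 to 62 bases before its start, and no CArG box in this window. Dusp5 held a pair of adjoining CArG boxes, 82 to 73 and 72 to 63 bases before its start, and a CRE core on the minus strand, 55 to 51 bases before it. The CArG pattern reads alike on both strands, so each box was matched on both, and no motif overlapped another in these windows. All 32851 promoter windows of the table were searched over the 250 bases before a start. Of these, 1.47% held a CArG box, 17.8% a CRE core and 6.75% an AP-1 site (TGANTCA). By gene, the shares were 1.62%, 19.8% and 7.82%. Of the 12 higher genes described next, 10 had a window; 3 of these held a CArG box (Myo1e, Egr2 and Dusp5), 6 a CRE core and none an AP-1 site. Of the 12 lower genes all 12 had a window, and none held a CArG box, 2 held a CRE core and 2 an AP-1 site. A match is a description of letters and not a binding site. Bases further upstream were not searched, so a gene without a match may hold the element there.

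Beyond these genes, the 12 protein-coding genes with the smallest p among those that stood higher without overlap, at a mean of at least 1 CPM, were Myo1e, Fos, Phlpp1, Bcl6, Atf3, Dcstamp, Plxdc2, Pcp4l1, Cytip, Rcbtb2, Egr2 and Dusp5. Of 10903 such genes, 270 (2.48%) stood higher without overlap. Lack of overlap and a small p were part of the rule for these and for the 12 lower genes below. Neither is a separate result for any of them. The log2 changes of the 12 ran from 0.31 to 1.15. With the GC offset they ran from 0.34 to 1.17, and edgeR called 6 of the 12, among 9 genes in all (0.0582% of the genes tested). DESeq2 called all 12, among 28 genes in all (0.181% of the genes tested). Both fits used the counts from which the 12 were chosen, so their calls are no separate support.

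Among the transcription factors and signalling genes, Atf3, a stress-induced factor of the ATF/CREB family, had 162, 137, 149.8 and 134 CPM with anti-ITGAV, against 108, 102, 113 and 116 CPM with IgG. The log2 change of Atf3 was 0.41 ± 0.09 (SE, edgeR adjusted p = 0.386), and 0.37 with the GC offset, where edgeR called it (adjusted p = 0.0496). Bcl6, a transcriptional repressor of inflammatory genes, had 38.8, 35.1, 36.1 and 35.4 CPM with anti-ITGAV, against 27.3, 25.8, 25.2 and 30.7 CPM with IgG. All of its anti-ITGAV libraries stood above its IgG libraries, of which replicate 4 was the highest. For Bcl6 the log2 change was 0.41 ± 0.08 (SE, edgeR adjusted p = 0.321), and 0.38 with the GC offset (edgeR adjusted p = 0.0393). Phlpp1, a phosphatase that removes an activating phosphate from AKT, had 17.1, 15.8, 17.0 and 18.0 CPM with anti-ITGAV, against 10.7, 11.2, 10.4 and 12.3 CPM with IgG. Its groups lay well apart, with SDs of 0.893 and 0.844 CPM around means of 17.0 CPM with anti-ITGAV, against 11.2 CPM with IgG. Its log2 change was 0.60 ± 0.11 (SE, edgeR adjusted p = 0.249), and the GC offset left it at 0.60 (edgeR adjusted p = 0.0496).

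Egr2, a zinc-finger immediate early factor, had 8.85, 8.83, 7.02 and 9.57 CPM with anti-ITGAV, against 5.94, 4.34, 5.72 and 6.68 CPM with IgG. The lowest anti-ITGAV library and the highest IgG library were close, 7.02 and 6.68 CPM. Dusp5, a nuclear phosphatase that acts on ERK, had 7.86, 6.00, 6.97 and 4.28 CPM with anti-ITGAV, against 3.35, 4.13, 3.32 and 3.35 CPM with IgG. Its anti-ITGAV 4 and IgG 2 libraries nearly met. The log2 changes were 0.59 ± 0.14 for Egr2 and 0.83 ± 0.20 for Dusp5 (SE, edgeR adjusted p = 0.495 for each).

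Among surface and adhesion genes, Cytip, whose product binds cytohesins and bears on leukocyte adhesion, had 25.3, 27.9, 28.4 and 26.8 CPM with anti-ITGAV, against 17.6, 17.7, 20.9 and 17.1 CPM with IgG. The groups did not overlap, and IgG 3 lay above the other IgG libraries. For Cytip the log2 change was 0.56 ± 0.13 (SE, edgeR adjusted p = 0.495), 0.56 with the GC offset (edgeR adjusted p = 0.0512) and 0.54 without both replicate 4 libraries. Dcstamp, which is needed for the fusion of osteoclasts and macrophage giant cells, was scarce, with 2.41, 2.86, 3.12 and 2.33 CPM with anti-ITGAV, against 1.01, 1.05, 1.38 and 1.38 CPM with IgG. Every anti-ITGAV library of Dcstamp stood above every IgG library, and its log2 change of 1.15 ± 0.25 was the largest of the 12 (SE, edgeR adjusted p = 0.386). Plxdc2, which encodes a membrane protein with a plexin domain, averaged 38.9 ± 2.39 CPM with anti-ITGAV, against 27.6 ± 4.63 CPM with IgG (SD, n = 4 each). Pcp4l1 averaged 15.3 ± 2.11 CPM with anti-ITGAV, against 9.73 ± 0.70 CPM with IgG, and Rcbtb2 126 ± 6.30 CPM with anti-ITGAV, against 102 ± 3.95 CPM with IgG (SD, n = 4 each). With the GC offset edgeR called Rcbtb2 (adjusted p = 0.031) and Pcp4l1 (adjusted p = 0.0496).

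The groups overlapped for Lpl, which encodes lipoprotein lipase. It had 1535, 1927, 1839.9 and 2251 CPM with anti-ITGAV, against 1358, 1415, 1599.7 and 1301 CPM with IgG. Anti-ITGAV 1 lay below IgG 3, and anti-ITGAV 4 was the highest library. The FPKM averaged 177.6 ± 28.9 with anti-ITGAV and 134 ± 12.7 with IgG (SD, n = 4 each). The log2 change was 0.41 ± 0.14 (SE, edgeR adjusted p = 0.988), 0.45 with the GC offset (edgeR adjusted p = 0.112) and 0.28 without both replicate 4 libraries.

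**Figure D2:**
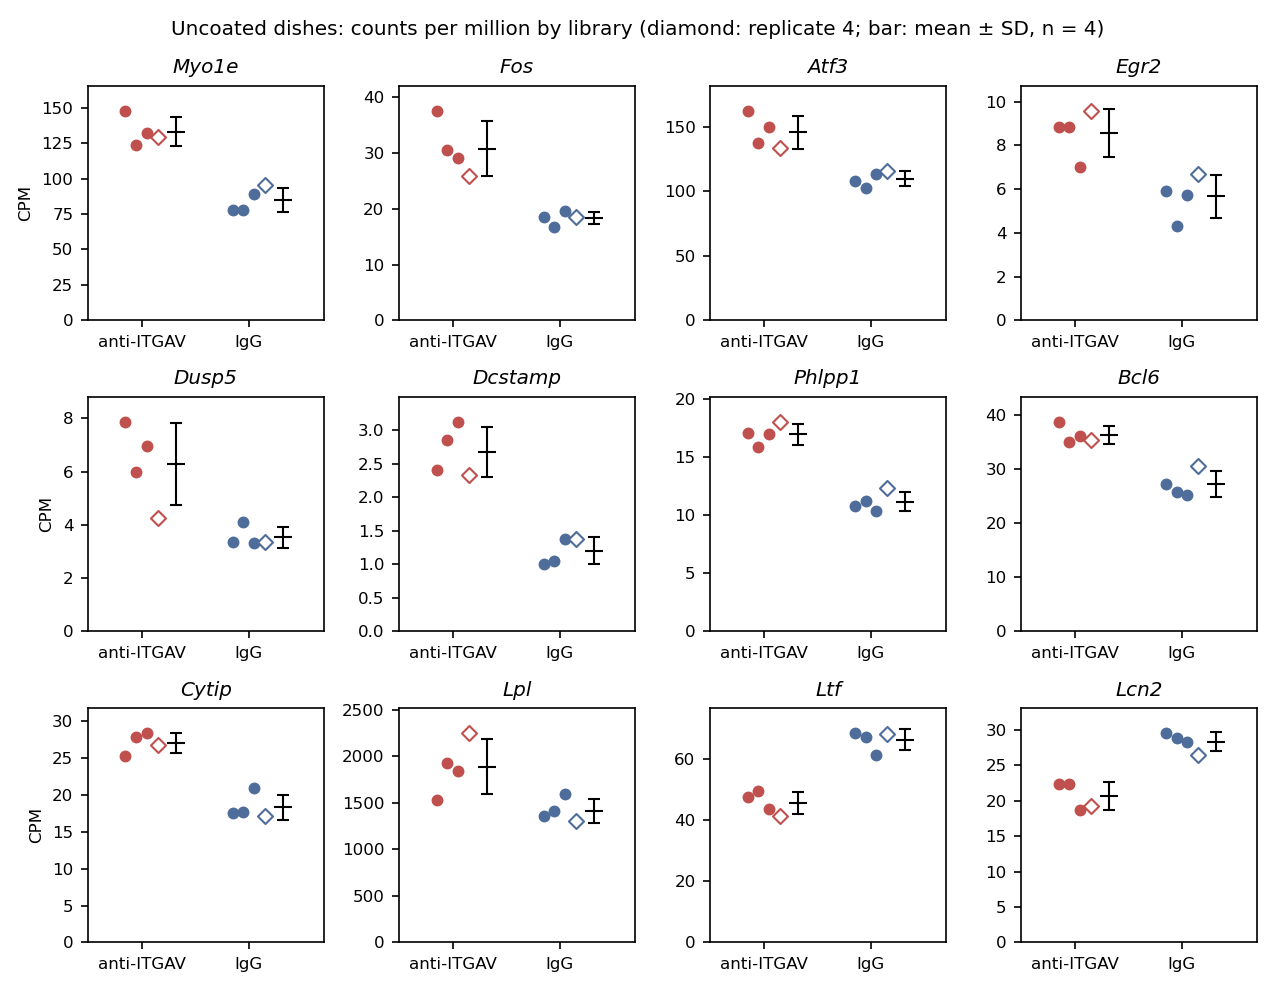
Each panel plots the CPM of 1 gene in the 4 anti-ITGAV and the 4 IgG libraries on uncoated dishes, on an axis from 0, with replicate 4 as an open diamond and the mean ± SD at the side. The groups overlap for Lpl, and the other genes shown were chosen among those without overlap. Ltf and Lcn2 are the genes that stand lower with anti-ITGAV.

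The 12 genes that stood lower under the same rule were Ltf, Lcn2, Nedd4, S100a9, Pglyrp1, Psmc3ip, Ctla2b, Mcpt8, Ngp, Dph7, Usp2 and Slc7a15, out of 78 of 10903 genes (0.715%) that stood lower without overlap. Their log2 changes lay between -0.95 and -0.33, and none passed the test. Among them Ltf, Lcn2, S100a9 and Ngp, 4 of the 12, are on the list of 18 neutrophil markers. Ltf, lactoferrin, had 47.5, 49.3, 43.5 and 41.4 CPM with anti-ITGAV, against 68.3, 67.1, 61.1 and 68.1 CPM with IgG. Its groups stood apart, with IgG 3 the lowest IgG library. Its log2 change was -0.54 ± 0.11 (SE, edgeR adjusted p = 0.321), and it was called with the GC offset (-0.57, edgeR adjusted p = 0.031), on the 8 uncoated libraries alone (edgeR adjusted p = 0.0385) and by DESeq2 (adjusted p = 0.00666).

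Lcn2, lipocalin 2, had 22.4, 22.4, 18.7 and 19.3 CPM with anti-ITGAV, against 29.6, 28.9, 28.3 and 26.5 CPM with IgG. Ngp, neutrophilic granule protein, had 73.8, 76.5, 73.4 and 62.5 CPM with anti-ITGAV, against 106, 98.4, 103 and 102 CPM with IgG. Neither gene's groups overlapped. S100a9, a subunit of calprotectin, averaged 90.4 ± 8.70 CPM with anti-ITGAV, against 122 ± 7.61 CPM with IgG (SD, n = 4 each). The log2 changes were -0.45 ± 0.11 for Lcn2, -0.52 ± 0.17 for Ngp, -0.43 ± 0.11 for S100a9 and -0.59 ± 0.16 for Pglyrp1, a peptidoglycan recognition protein (SE, edgeR adjusted p of 0.495 to 0.988).

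Of the 18 neutrophil markers, all tested, 7 stood lower and none higher at an unadjusted p under 0.05, where 1.21% and 1.83% of all genes did. Besides Ltf, Lcn2, Ngp and S100a9 these were Camp, the cathelicidin gene, Ctsg, cathepsin G, and Fcnb, a ficolin, named because they complete the count. Camp averaged 5.70 ± 0.83 CPM with anti-ITGAV, against 7.65 ± 0.77 CPM with IgG, Ctsg 3.22 ± 0.38 CPM with anti-ITGAV, against 4.23 ± 0.50 CPM with IgG (SD, n = 4 each). The median log2 change was -0.22 (all genes 0.01), and -0.15 with the GC offset (all genes 0.01). Their summed level was 455 to 506 CPM with anti-ITGAV, against 559 to 604 CPM with IgG, which do not overlap, and no marker was at 0 in all 8 libraries. In bulk RNA, fewer cells of a type and less RNA per cell cannot be told apart. Their part in the other differences was not tested.

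Mast cell and basophil markers stood lower as well. Of the 10 tested, 2 stood lower at an unadjusted p under 0.05 (1.21% of all genes did), Mcpt8 and Prss34, both basophil proteases. All 10 had a log2 change below 0, where 53.2% of all genes had one above 0. The median was -0.37, and -0.26 with the GC offset. Mcpt8 had 4.56, 4.09, 5.30 and 3.34 CPM with anti-ITGAV, against 7.30, 6.10, 7.87 and 7.25 CPM with IgG, without overlap (log2 change -0.72 ± 0.23, SE, edgeR adjusted p = 0.988). The summed level of the list was 26.6 to 33.2 CPM with anti-ITGAV, against 33.9 to 42.5 CPM with IgG. Of the 8 monocyte markers 7 had a log2 change below 0, with a median of -0.16 and none at an unadjusted p under 0.05. That median was -0.07 with the GC offset and -0.28 without both replicate 4 libraries, and leaving out 1 library at a time gave -0.27 to -0.03.

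The remaining lower genes have other roles. Nedd4, a ubiquitin ligase, had 3.81, 3.24, 3.28 and 3.78 CPM with anti-ITGAV, against 5.43, 6.97, 5.68 and 4.75 CPM with IgG (log2 change -0.69 ± 0.17, SE, edgeR adjusted p = 0.495). The log2 changes were -0.48 for Psmc3ip, which acts in meiotic recombination, -0.33 for Dph7, an enzyme of diphthamide synthesis, and -0.40 for Usp2, a deubiquitinase. Slc7a15, a member of an amino acid transporter family, had 0.774, 1.19, 0.384 and 1.18 CPM with anti-ITGAV, against 1.96, 1.21, 2.15 and 1.51 CPM with IgG. Its closest libraries, anti-ITGAV 2 and IgG 2, were almost level. Its log2 change of -0.95 ± 0.37 was the largest decrease of the 12 (SE, edgeR adjusted p = 0.988).

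Immediate early genes as a group stood higher. Of 27 genes, all tested, 24 had a log2 change above 0, where 53.2% of all genes did. At an unadjusted p under 0.05, 10 stood higher (1.83% of all genes did) and none lower (1.21%). Without overlap 9 stood higher (2.24% of all genes did), and edgeR called Fos alone. The median log2 change was 0.25, and 0.15 with the GC offset. Egr1, a zinc-finger factor of the same family as Egr2, had 2.44, 0.848, 3.07 and 2.14 CPM with anti-ITGAV, against 0.861, 1.13, 0.530 and 0.849 CPM with IgG. Anti-ITGAV 2 lay among the IgG libraries, and the log2 change was 1.33 ± 0.32 (SE, edgeR adjusted p = 0.495, DESeq2 adjusted p = 0.0409). The others at an unadjusted p under 0.05, named because they complete the count, were Egr3, Nr4a1, Zfp36, Dusp1, Fosl2 and Ier5. Zfp36, whose product destabilizes cytokine mRNAs, averaged 112 ± 7.94 CPM with anti-ITGAV, against 89.1 ± 3.46 CPM with IgG, without overlap (SD, n = 4 each). Nr4a1, an orphan nuclear receptor, averaged 5.79 ± 0.34 CPM with anti-ITGAV, against 3.69 ± 1.01 CPM with IgG, also without overlap. Dusp1, a phosphatase of stress-activated kinases, and Fosl2, another AP-1 subunit, had overlapping groups, at log2 changes of 0.34 ± 0.12 and 0.27 ± 0.10 (SE). The edgeR adjusted p of these 6 genes was 0.988. Of the 21 genes of the list with a promoter window, 13 held a CRE core, 2 a CArG box and none an AP-1 site.

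Among all genes 1.83% stood higher and 1.21% lower at an unadjusted p under 0.05. The feedback genes of the ERK pathway had 2 of 12 tested members higher, Dusp5 and Spry2, and none lower. Their median log2 change was 0.05, and 0.20 without both replicate 4 libraries, and leaving out 1 library at a time gave -0.02 to 0.18. Among 21 NF-κB, TNF and IL-1 genes 2 stood higher, Cd40 and Tnf, and none lower (median 0.12, and 0.06 with the GC offset). Of 18 chemokine ligands 1 stood higher, Ccl4, which attracts leukocytes, with a median of 0.10 (0.18 with the GC offset).

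Lipid genes stood higher in part. Of 25 tested lipid uptake and storage genes, 5 stood higher (1.83% of all genes) and none lower (1.21%) at an unadjusted p under 0.05. The median log2 change of the list was 0.10 (0.08 with the GC offset and 0.18 without both replicate 4 libraries). Pparg, the nuclear receptor that governs lipid uptake, had 29.9, 27.4, 26.2 and 28.1 CPM with anti-ITGAV, against 25.2, 19.0, 22.7 and 21.9 CPM with IgG. The groups did not overlap (log2 change 0.33 ± 0.11, SE, edgeR adjusted p = 0.988). Plin2, which coats lipid droplets, averaged 701.7 ± 71.7 CPM with anti-ITGAV, against 607 ± 36.3 CPM with IgG (SD, n = 4 each), and Hilpda, which curbs lipid breakdown, 5.06 ± 0.97 CPM with anti-ITGAV, against 3.54 ± 0.71 CPM with IgG. Angptl4, an inhibitor of lipoprotein lipase, averaged 2.77 ± 0.44 CPM with anti-ITGAV, against 1.86 ± 0.11 CPM with IgG, without overlap. Of 12 genes of cholesterol efflux 1, Ch25h, stood higher. None of 27 genes of sterol and fatty acid synthesis reached an unadjusted p under 0.05 in either direction (median 0.01, and 0.12 without both replicate 4 libraries).

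The target of the antibody and its partners showed no difference that passed the test. An antibody against a protein need not change its RNA, so Itgav RNA does not check the labels. Itgav had 82.0, 96.2, 88.5 and 116 CPM with anti-ITGAV, against 104, 105, 110.1 and 83.2 CPM with IgG. Anti-ITGAV 4 was the highest of the 8 libraries, and IgG 4 lay among the anti-ITGAV libraries. Its log2 change was -0.07 ± 0.16 (SE, edgeR adjusted p = 0.988), and -0.25 without both replicate 4 libraries. Per length, Itgb1 was the most abundant partner, at 179.9 ± 14.3 FPKM with anti-ITGAV and 187 ± 9.14 FPKM with IgG, ahead of Itgb5, at 91.0 ± 6.86 FPKM with anti-ITGAV and 89.9 ± 5.51 FPKM with IgG (SD, n = 4 each). Itgb3 was scarce, at 1.31 ± 0.10 FPKM with anti-ITGAV and 1.03 ± 0.16 FPKM with IgG. The log2 change of Itgb3 was 0.36 ± 0.22 (SE, edgeR adjusted p = 0.988). Itgb6 and Itgb8 did not pass the filter on low counts, with at most 0.154 CPM in any of the 8 libraries.

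Among the ligands, Spp1, osteopontin, had 993 ± 189 FPKM with anti-ITGAV and 987 ± 158 FPKM with IgG, and Fn1, fibronectin itself, 28.8 ± 2.35 FPKM with anti-ITGAV and 27.4 ± 4.12 FPKM with IgG (SD, n = 4 each). Vtn, vitronectin, had no count in the 8 libraries. Thbs1, thrombospondin 1, a matrix protein that binds integrins and activates TGF-β, had 320.1, 325, 316 and 314 CPM with anti-ITGAV, against 265, 228, 219 and 239 CPM with IgG. Its anti-ITGAV libraries lay close together above all IgG libraries (log2 change 0.42 ± 0.10, SE, edgeR adjusted p = 0.495; 0.39 with the GC offset). Of 13 tested ligand and matrix genes 2 stood higher at an unadjusted p under 0.05 (1.83% of all genes did), Thbs1 and Col4a2.

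Genes of focal adhesions and actin differed little in size. Of 35 tested, 28 had a log2 change above 0, where 53.2% of all genes did. The adaptor gene Bcar1 alone had an unadjusted p under 0.05, where 1.83% of all genes stood higher and 1.21% lower. No gene of the list was called. The median log2 change was 0.09, with 0.03 under the GC offset and 0.17 without both replicate 4 libraries. Among 16 tested myosin genes, Myo1e was the sole one at an unadjusted p under 0.05. Of 14 other integrin genes 1 stood higher, Itgax, and 2 lower, Itga2 and Itga8, with a median log2 change of 0.05 (0.01 with the GC offset and 0.12 without both replicate 4 libraries).

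Of the macrophage identity genes 1 of 18 stood higher at an unadjusted p under 0.05, where 1.83% of all genes did. It was Cd14, the co-receptor for lipopolysaccharide, with 256, 233, 228 and 186 CPM with anti-ITGAV, against 161, 163, 159.6 and 172 CPM with IgG. The groups did not overlap, and replicate 4 of each antibody was the library nearest the other group. Its log2 change was 0.46 ± 0.13 (SE, edgeR adjusted p = 0.757), and edgeR called it at 0.40 with the GC offset. Vegfa, a growth factor for vessels, had 33.4, 27.1, 27.0 and 33.1 CPM with anti-ITGAV, against 22.8, 23.4, 22.6 and 23.7 CPM with IgG. Its groups stood apart (log2 change 0.38 ± 0.10, SE, edgeR adjusted p = 0.585, DESeq2 adjusted p = 0.0379). Pdgfb stood higher too, at a log2 change of 0.45 ± 0.17, and these were the 2 of 11 repair growth factor genes at an unadjusted p under 0.05.

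Several programmes gave no member or 1 member at an unadjusted p under 0.05. No ribosomal protein gene of 26, cell cycle gene of 22 or MHC class II gene of 7 did. Of 29 type I interferon genes 1 did (Oas3, higher), of 26 lysosomal genes 1 (Ctsl, higher), and of 12 alternative activation genes 1 (Chil3, lower). Glycolysis and hypoxia genes had 3 of 25 higher (Ndrg1, Ankrd37 and Pfkp), where 1.83% of all genes stood higher. All 7 MHC class II genes had a log2 change above 0, where 53.2% of all genes did. Their median log2 change was 0.23, and 0.16 with the GC offset. With the GC offset 2 of the 22 cell cycle genes stood lower at an unadjusted p under 0.05 and 0 higher. Of all 15469 genes tested, 349 stood lower and 451 higher with that offset. The median of the 12 tested mitochondrial genes was -0.04, and 0.29 with the GC offset, which moved it by more than any other list with at least 3 tested genes; their median GC content was 37.4%.

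**Figure D3:**
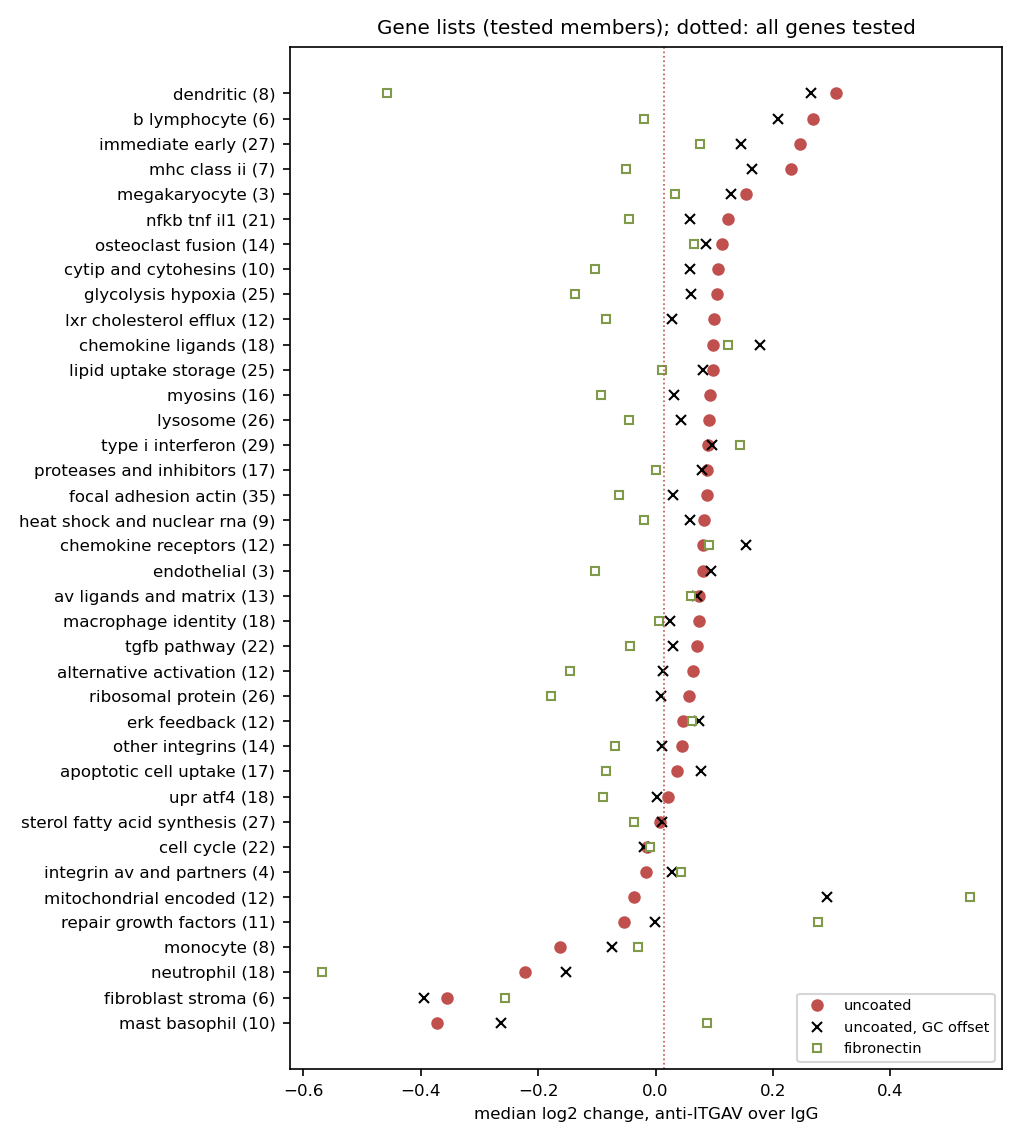
The plot gives the median log2 change, anti-ITGAV over IgG, of each gene list with at least 3 tested members (number in brackets) on uncoated dishes (filled circles), on uncoated dishes with the GC offset (crosses) and on fibronectin (open squares), with the median of all genes tested as a dotted line. Immediate early genes stand at 0.25 and neutrophil markers at -0.22; the dendritic and B lymphocyte lists are at the top with median levels of 0.45 and 0.42 CPM.

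The fibronectin-coated dishes gave the same antibody pair in 8 other libraries, which enter the values above through the low-count filter, the scaling and the shared estimate of the spread. These libraries also enter the GC offset, whose trend was taken from the mean of all libraries in the fit. All 12 higher genes had a log2 change above 0 on fibronectin, where 50% of all genes did, and 8 of the 12 had an unadjusted p under 0.05 (4.65% of all genes in either direction). None was called there. Myo1e had 169.7, 175, 178 and 172 CPM with anti-ITGAV on fibronectin, against 131, 143, 143 and 141 CPM with IgG on fibronectin. Those groups did not overlap, and differed by 0.32 ± 0.08 on the log2 scale (SE, edgeR adjusted p = 0.72). Fos had 39.1, 43.2, 45.1 and 42.5 CPM with anti-ITGAV on fibronectin, against 29.8, 31.0, 25.5 and 29.9 CPM with IgG on fibronectin, at 0.55 ± 0.11 (SE, edgeR adjusted p = 0.18). The log2 change of Cytip was 0.68 ± 0.13 and that of Lpl 0.46 ± 0.14 on fibronectin (SE).

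Of the 12 lower genes 10 had a log2 change below 0 on fibronectin, and 6 of these had an unadjusted p under 0.05. Ltf fell there to 33.0, 30.7, 30.3 and 29.8 CPM with anti-ITGAV, against 54.7, 73.1, 69.5 and 50.6 CPM with IgG (log2 change -1.002 ± 0.11, SE, edgeR adjusted p = 0.00099). Lcn2 fell to 13.6, 13.9, 13.6 and 14.4 CPM with anti-ITGAV, against 21.9, 25.4, 29.2 and 21.8 CPM with IgG (-0.83 ± 0.11, SE, edgeR adjusted p = 0.00436). The median of the neutrophil list on fibronectin was -0.57, that of the immediate early genes 0.08 and that of the mast cell and basophil list 0.09. At an unadjusted p under 0.05 on fibronectin, 6 of 27 immediate early genes stood higher and 1 lower. Of 18 neutrophil markers 1 stood higher and 10 lower, and of 10 mast cell and basophil markers 1 higher and 2 lower. Among all 15469 genes tested 402 stood higher and 318 lower there.

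**Figure D4:**
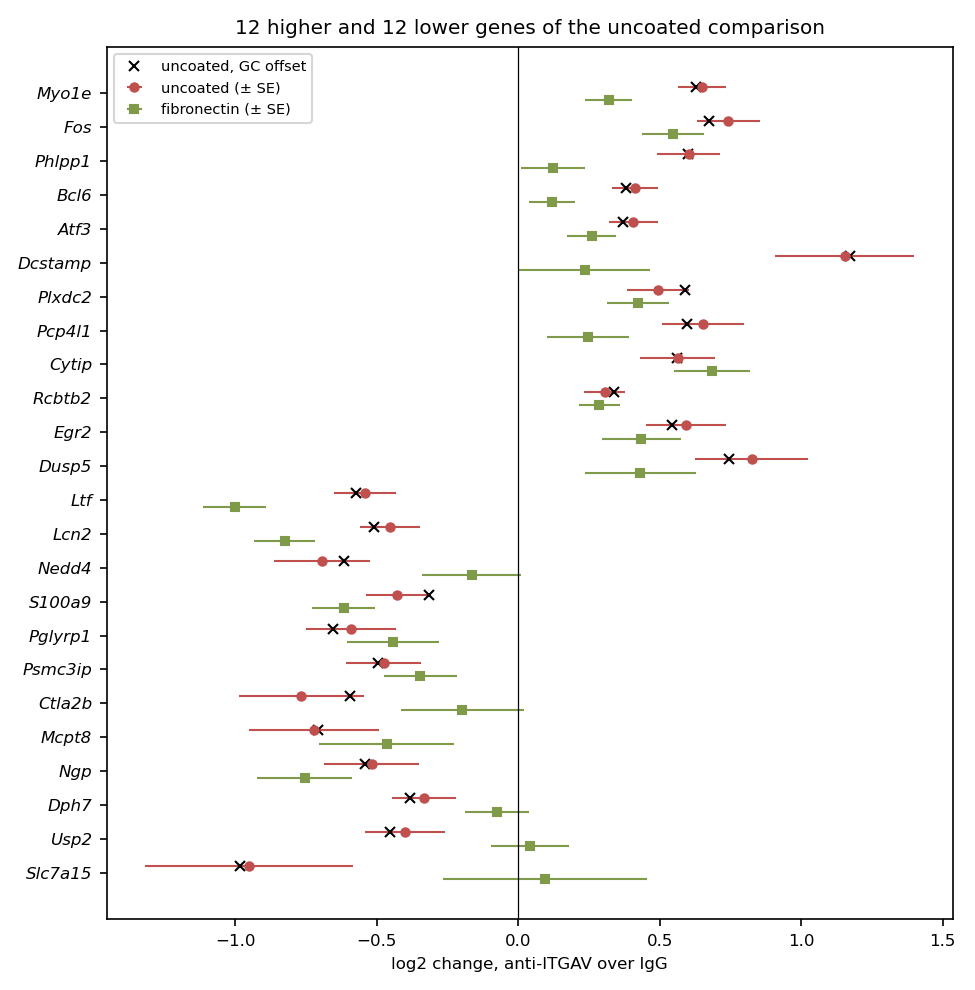
The plot gives the log2 change, anti-ITGAV over IgG, of the 12 higher and 12 lower genes on uncoated dishes (circles, ± SE), on uncoated dishes with the GC offset (crosses) and on fibronectin (squares, ± SE). The 12 higher genes are above 0 on both coatings, Dcstamp at 1.15 on uncoated dishes and 0.24 on fibronectin.

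Whether the antibody difference itself depended on the coating was tested as an interaction. EdgeR called no gene (0%, smallest adjusted p = 0.646), with 614 genes (3.97%) at an unadjusted p under 0.05, while 1 gene (0.00646%) was called by DESeq2. Myo1e had an interaction of 0.33 ± 0.12 and Phlpp1 of 0.48 ± 0.16 on the log2 scale (SE, edgeR adjusted p = 0.646 for each), both larger on uncoated dishes. The smallest unadjusted interaction p belonged to Gm10076, Lars2, Gm10736 and CT010467.1. CT010467.1 is annotated as ribosomal RNA and Gm10736 as a processed pseudogene, so their reads may be shared with near-identical copies. Lars2, a mitochondrial leucyl-tRNA synthetase, had 1133, 918, 1182 and 869 CPM with anti-ITGAV, against 764, 833, 562 and 677 CPM with IgG. On the log2 scale it differed by 0.53 ± 0.15 (SE) on uncoated dishes and -0.43 on fibronectin.

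The number of genes called differed between methods and with the GC offset, and not between the scaling factors tried. It was 2 with relative log expression or upper quartile factors, with no low-count filter and with 1 CPM in 4 libraries. It was 9 (0.0582%) with the GC offset, namely Myo1e, Rcbtb2, Bcl6, Cd14, Atf3, Phlpp1, Pcp4l1 and Cd72 higher and Ltf lower. Without both replicate 4 libraries it was 2 (0.0128%), Myo1e and Fos, and on the 8 uncoated libraries alone 3 (0.0207%), Myo1e higher and Ngp and Ltf lower. With the GC offset and without both replicate 4 libraries it was 61 (0.39%), of which 23 stood higher and 38 lower, with a median GC content of 44.4% and 43.7%, against 50.1% of all genes tested. Limma voom with quality weights, which gave replicate 4 the lowest weight within each antibody, called 157 (101 higher and 56 lower, 1.01%). It had no GC offset, and the median GC content was 51.6% for the higher and 42.5% for the lower genes.

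**Figure D5:**
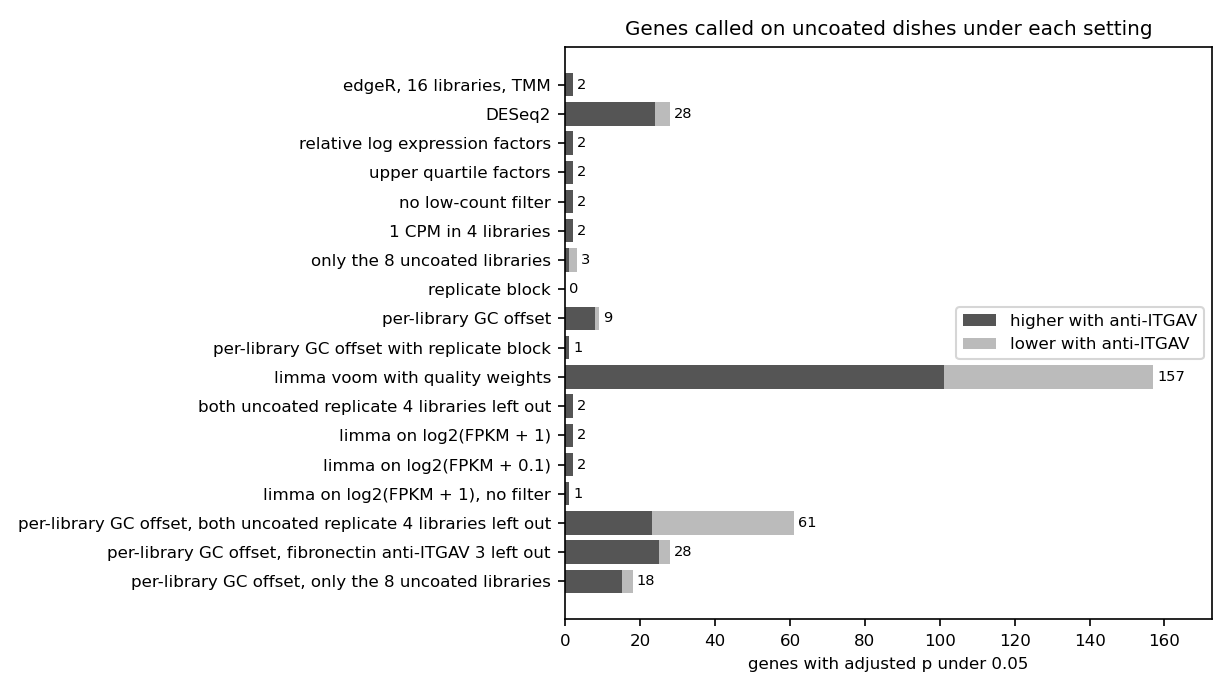
The bars give the number of genes with an adjusted p under 0.05 for anti-ITGAV against IgG on uncoated dishes under each setting, dark for genes higher and pale for genes lower with anti-ITGAV, on an axis from 0. The counts run from 0 with the replicate number as a block to 157 with voom and quality weights.

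Among protein-coding genes at an unadjusted p under 0.05, at a mean of at least 1 CPM and without overlap, Gm10382 (1.26), Dcstamp, St3gal6 (0.89), Fam83f (0.88), Rhov (0.84) and Dusp5 had the largest log2 changes on the higher side. The pseudogenes Gm10736 and Gm15501, outside that rule, each had 1.45. St3gal6, a sialyltransferase, had 1.52, 1.73, 1.51 and 1.73 CPM with anti-ITGAV, against 0.594, 0.999, 0.812 and 1.08 CPM with IgG. Rhov, a small GTPase, averaged 2.98 ± 0.43 CPM with anti-ITGAV, against 1.66 ± 0.60 CPM with IgG (SD, n = 4 each). On the lower side stood Slc7a15, Col6a3 (-0.85), Ctla2b (-0.77), Zfp930 (-0.74), Mcpt8 and Nedd4. The protein-coding genes under that rule other than Dcstamp, Dusp5 and Nedd4 had an edgeR adjusted p of 0.988.

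DESeq2 also called genes outside the 24. Fzd7, a Wnt receptor, had 36.2, 30.8, 33.9 and 31.2 CPM with anti-ITGAV, against 26.5, 22.6, 23.3 and 27.97 CPM with IgG, without overlap (DESeq2 adjusted p = 0.0379). Epb41, a protein of the membrane skeleton, had 220.3, 209, 219 and 216 CPM with anti-ITGAV, against 179.8, 182, 185 and 189 CPM with IgG (log2 change 0.23 ± 0.07, SE, DESeq2 adjusted p = 0.0184). Both replicate 4 libraries lay with their label in these genes. Cd300ld5 is one of a family of similar genes, and Gm15910 is annotated as antisense. The protocol names no step that marks strand, so reads of Gm15910 and of its partner cannot be told apart.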

How the data were processed

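RNA of 16 polyA-selected libraries (4 groups of 4) was measured by paired-end sequencing, per the labels' protocols. The authors deposited whole-number counts per gene and the FPKM of the same genes. The submitters' processing notes name HISAT2, StringTie, featureCounts, mm10 and GRCm38.p6; their roles and versions, and the strand setting, are not given in these sources. Counts were fitted with edgeR 4.0.16 (filterByExpr, minimum count 10; TMM; robust quasi-likelihood, 1 mean per group, all 16 libraries), with adjustment over 15469 genes. The GC offset was a lowess trend (span 0.5) against GC content of the transcripts. It was fitted to each library's log2 CPM (prior count 2) less the mean of all libraries in the fit. DESeq2 1.42.0, limma 3.58.1 (voom; log2(FPKM + 1) and log2(FPKM + 0.1)), other scaling, filters, a replicate block and leaving out each library were alternatives. The GC offset without both replicate 4 libraries, without 1 fibronectin library or on 8 libraries was chosen after seeing the data.

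Named genes were 4 given ones, those edgeR or DESeq2 called (up to 20), the 12 higher and 12 lower described, αV partners and ligands, up to 4 per list by p, the 6 largest changes each way and 4 by interaction p. Members, the 40 lists and the rule were chosen with earlier results of these data known. No column was left unused (0). Replicate pairs differed by a chi-square of 5.53 to 75.1 per degree of freedom, so none was a library deposited again. The fit was tested on simulated counts. These had no GC trend and no library set apart as the replicate 4 libraries were, so that test does not bear on either. Some genes are not reported here.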

Additional observations from a re-analysis of the deposited data

Results flagged for a closer look

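In 19 of 358 groups of 4 libraries (5.31%), 1 library stood apart by Dixon's ratio, its gap to the nearest library over the group's range, past the 95% critical value for 4 samples, and chance gives about 1 in 20. Anti-ITGAV 4 was that library in 7 and IgG 4 in 4 of the 19 groups. The cause of these gaps was not tested.

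In IgG 4, Mrc1 was at 1834 CPM and the other IgG libraries at 2894 to 2944 CPM (ratio 0.955). Cd163, a scavenger receptor, was at 54.1 CPM there, with 64.4 to 65.1 CPM in the others (0.937). Vcan, versican, was at 5.78 CPM, with 12.6 to 13.2 CPM in the others (0.918), and Hgf, hepatocyte growth factor, at 15.9 CPM, with 24.5 to 25.8 CPM (0.866).

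In anti-ITGAV 4, Cxcr2 was at 4.50 CPM and the other anti-ITGAV libraries at 3.25 to 3.33 CPM (ratio 0.934). Tgfbr2, a TGF-β receptor, was at 348 CPM, with 375 to 377 CPM in the others (0.930), and Oas3 at 207 CPM, with 234 to 237 CPM (0.908). Hsp90aa1, a chaperone, was at 275 CPM, with 172 to 186 CPM in the others (0.866). Cd2 (0.0822 CPM, with 0.333 to 0.357 CPM in the others, ratio 0.911), Ccr7 (0.0822 CPM, with 0.384 to 0.440 CPM, 0.844) and Col3a1 (0.905 CPM, with 0.503 to 0.566 CPM, 0.843) were all below 1 CPM.

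In IgG 3, Cytip was at 20.9 CPM and the other IgG libraries at 17.1 to 17.7 CPM (ratio 0.847). Ltf was at 61.1 CPM, with 67.1 to 68.3 CPM in the others (0.8293). Ccl5 was at 2.05 CPM, with 1.01 to 1.16 CPM (0.858), and Clec9a at 0.671 CPM, with 0.184 to 0.237 CPM (0.890).

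Dusp5 was at 4.13 CPM in IgG 2, with 3.32 to 3.35 CPM in the other IgG libraries (ratio 0.957). Tyro3 was at 0 in IgG 1, with 0.105 to 0.115 CPM in the others (0.916). Col1a1 was at 6.55 CPM in anti-ITGAV 1, with 4.93 to 5.20 CPM in the other anti-ITGAV libraries (0.836), and Ankrd37 at 3.14 CPM in anti-ITGAV 2, with 3.70 to 3.81 CPM (0.834).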

How the results depend on the processing

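The count of 2 genes called on uncoated dishes was 28 with DESeq2, 157 with limma voom and quality weights, 9 with the GC offset, 3 on the 8 uncoated libraries, 1 with limma on log2(FPKM + 1) without a filter and 2 with that filter. With the GC offset it was 61 without both replicate 4 libraries, 28 without anti-ITGAV replicate 3 on fibronectin, whose mitochondrial share was 3.67%, and 18 on the 8 uncoated libraries. Leaving out 1 library at a time gave 0 to 2 genes, with 0 without IgG 1, IgG 2, anti-ITGAV 1 or anti-ITGAV 3 on uncoated dishes. The interaction count of 0 was 1 with DESeq2. Why these counts moved was not tested. Among the log2 changes of named genes under these settings none that had passed changed sign, 5612 stayed on their side of the threshold and, where uncalled, within the spread between replicates, 106 newly passed, 22 no longer passed and 98, called in neither setting, moved by more than the spread.

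With the replicate number as a block 0 genes were called, and 1, Myo1e, with the block and the GC offset. Same-numbered libraries did not deviate together (correlations of -0.05, 0.00, -0.06 and -0.30 for numbers 1 to 4). The labels do not say whether same-numbered samples share a mouse, culture or batch, and these correlations cannot decide it.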
